A study of Schmidtea mediterranea with 6 samples.

Results

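In whole planarians fed double-stranded RNA (dsRNA) against *nkx2.2*, 142 of 28069 transcripts were partly lowered in every knockdown library, that is, reduced without being nearly lost. They were chosen by their values in these 6 libraries. Levels are in CPM, each count divided by the column sum of its library and multiplied by 1000000. A transcript was a member where its control mean was at least 2 CPM, where each of the 3 *nkx2.2(RNAi)* libraries held at most 60% of the control mean and lay below all 3 control libraries, and where the *nkx2.2(RNAi)* mean was above 12.5% and at most 50% of the control mean. *apob-2* and *ctsla* met these limits and were set aside by name, which left 142 of 144 transcripts. Because these values chose the members, their levels and fold changes are given as a description, without a test.

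The animals were uninjured asexual *Schmidtea mediterranea* of the clonal line CIW4. Control animals were fed dsRNA against *egfp*, a jellyfish gene that planarians lack, and *nkx2.2(RNAi)* animals were fed dsRNA against *nkx2.2*; both groups received 1 µg of dsRNA in 1 feeding and were starved for 7 days. Each group had 3 libraries, each made from whole animals pooled in a tube, 6 to 10 of them per the labels, though the range in the methods is lower. The methods call the libraries biological replicates, that is, separate pools of animals of 1 clonal line, and neither source says that they came from separate cultures.

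The planarian intestine is a branched blind gut that runs through the whole body. Its absorptive phagocytes engulf food, digest it inside the cell, and store and export lipids, and secretory goblet cells lie between them. *nkx2.2* encodes a homeodomain transcription factor enriched in the intestine, and its relatives in vertebrates act in the development of the gut lining and pancreas. The libraries are bulk RNA from whole animals, so fewer cells of a type and less RNA per cell cannot be told apart.

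The 6 libraries held 53327794 to 65513912 counts, and the 10 most abundant transcripts took 8.26% to 9.27% of them. The targeted transcript, *nkx2.2* (dd_Smed_v6_2716_0_1), had 176, 220 and 179 CPM in control animals against 9.54, 8.21 and 8.28 CPM after *nkx2.2* knockdown, so that each library went with its label. Among the intestinal markers, *npc2* stood at 97.7% of its control level, *slc22a6* at 151%, *ctsla* at 35.4%, *apob-2* at 39.7% and *apob-1* at 0.731%. Summed over these 5 markers the level was 4531 to 4873 CPM in control and 1706 to 2289.7 CPM in *nkx2.2(RNAi)* libraries, with none at 0. The fall of this sum came from *ctsla*, *apob-1* and *apob-2*, while *npc2* stayed near control and *slc22a6* rose. The neoblast markers *piwi-1* and *tgs-1* were at 87.2% and 96.6% of control, *prog-1* of early epidermal progeny at 93.9%, *ChAT* of cholinergic neurons at 93.5% and the pharynx *laminin* at 89.0%. The part of cell number in the levels below was not tested.

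The library of *nkx2.2(RNAi)* replicate 1 stood apart from replicates 2 and 3, though not in the members. When that library was left out and the same limits were applied to the other 5, 663 transcripts met them, of which 136 were members and 527 were not. Those 527 had a median of 95.1% of the control mean in replicate 1, against 41.6% in replicate 2 and 38.3% in replicate 3. The members had medians of 35.2%, 31.0% and 33.3% in replicates 1, 2 and 3. Without replicate 1, the median remaining level of the members moved from 34.1% to 33.1%. The rule itself asks replicate 1 to be low, so this split between the sets is fixed by the choice of members. The 527 transcripts were also of low abundance, with a median control mean of 5.62 CPM against 26.7 CPM for the members.

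**Figure D1:**
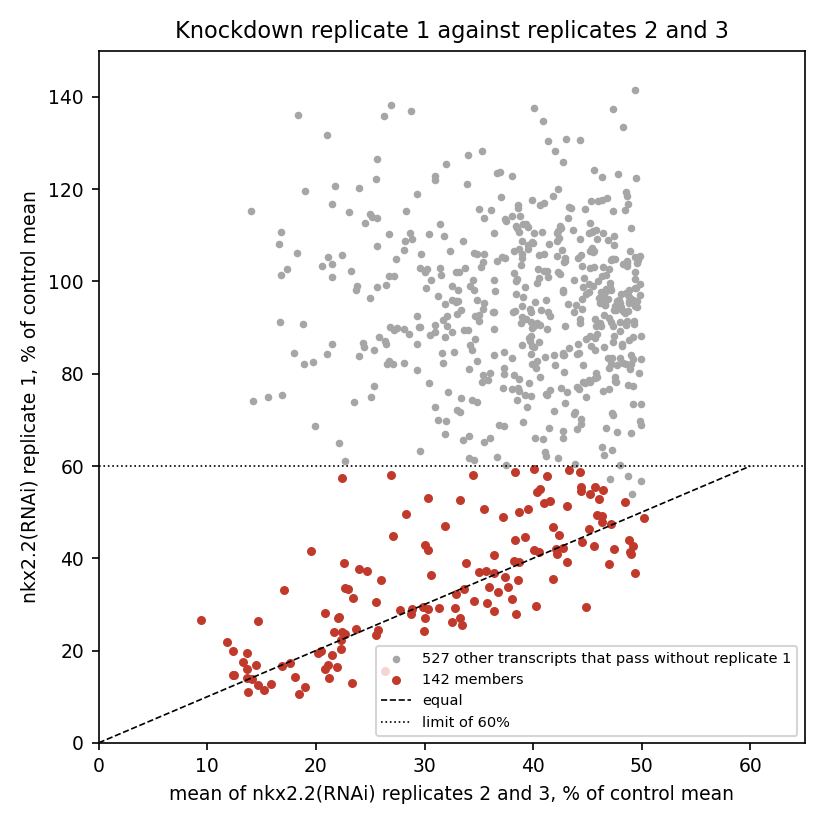
Level in nkx2.2(RNAi) replicate 1 (vertical axis, % of the control mean) against the mean of nkx2.2(RNAi) replicates 2 and 3 (horizontal axis, % of the control mean), with 1 point per transcript. The 142 members (red) lie around the line of equal levels and below the 60% limit, while the 527 other transcripts that pass only without replicate 1 (grey) have a median of 95.1% in replicate 1.

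Across the 142 members, the *nkx2.2(RNAi)* mean was between 12.9% and 49.7% of the control mean, with a median of 34.1% and quartiles of 23.1% and 42.6%. Of them, 26 kept at most 20%, 32 kept above 20 and at most 30%, 37 kept above 30 and at most 40%, and 47 kept above 40 and at most 50%. In 41 members the reduction was at least 4-fold. By the rule, no knockdown library of a member overlapped a control library, which was also so for 13.3% of the 14871 transcripts tested. All 142 members passed the filter on low counts and 142 were called lower by the edgeR exact test at a false discovery rate (FDR) of 0.05, where 5.43% of the tested transcripts were called lower; the rule used the same contrast, so nothing is read from that count. The edgeR quasi-likelihood test called 139 of them lower, against 3.42% of the tested transcripts.

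The members were spread over the whole range of abundance. In control animals 47 had a mean under 10 CPM, 67 had 10 to 100 CPM and 28 had 100 CPM or more, of which 5 reached 1000 CPM. Together the members took 2.77%, 2.63% and 2.75% of all counts in control animals and 0.735%, 0.812% and 0.933% after *nkx2.2* knockdown. The summed level was 26338 to 27722 CPM in control and 7346 to 9325 CPM in *nkx2.2(RNAi)* libraries, and without the most abundant pair, a cathepsin and a prostaglandin synthase relative, 14113 to 15183 and 4587 to 5298 CPM. The members had a median length of 1428.5 bases, close to the 1443 bases of the tested transcripts, and a range of 340 to 7422 bases.

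**Figure D2:**
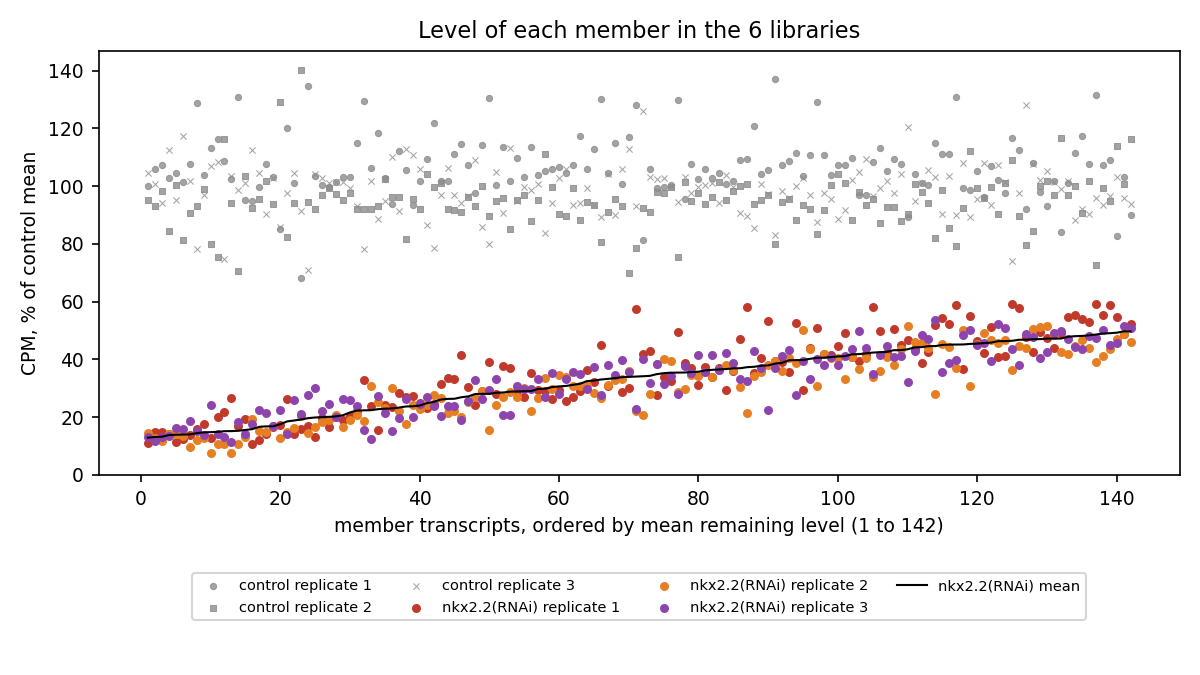
Level of each of the 142 members in the 6 libraries as a percentage of its control mean (vertical axis), with members ordered by mean remaining level (horizontal axis); grey symbols are control libraries, coloured points *nkx2.2(RNAi)* libraries, and the line their mean. The mean rises from 12.9% to 49.7%, and no coloured point passes the 60% limit.

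Names were taken from the study's tables of best BLAST hits, which list every member: 102 had a hit in a named or numbered protein of another animal and 40 had none. A name below is that of the hit, not proof of the same function. Reads that aligned to several transcripts were counted for each of them, so values of near-identical copies can share reads. The members without a hit were shorter, with a median of 942 bases against 1593 bases for those with one. By keyword in the hit names, the members fell into transporters (26), lipid enzymes and lipid-binding proteins (10), matrix and adhesion proteins (7), TRAF and IAP proteins (6), cytochromes P450 (5), ion channels (5), vesicle traffic and small GTPases (5), kinases (4), peptidases and inhibitors (4), 3 single transcripts and 27 others.

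The highest CPM of any member belonged to a peptidase. The transcript dd_Smed_v6_48_0_1, whose best hit is the zebrafish ctsl.1 and whose human hit is cathepsin L1, a lysosomal cysteine protease, had 7204, 7171 and 7309 CPM in control and 1193, 1387 and 1783 CPM in *nkx2.2(RNAi)* libraries. The means were 7228 ± 72.2 and 1454 ± 301 CPM (SD, n = 3 each), so 20.1% remained. The control libraries lay within a narrow band, and replicate 3 was the highest and replicate 1 the lowest of the knockdown libraries. It is a different transcript from *ctsla*, the cathepsin set aside above, which kept 35.4%.

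Of the other 3 members in this group, 2 had serine protease hits. The transcript dd_Smed_v6_7541_0_1, with the human hit enteropeptidase (TMPRSS15), which in mammals activates trypsinogen at the gut lining, had 39.5, 36.2 and 38.3 CPM in control and 11.2, 10.1 and 12.7 CPM in *nkx2.2(RNAi)* libraries, 29.8% of control. The transcript dd_Smed_v6_4090_0_1, like the mouse serine protease Prss52, had 45.2, 45.0 and 50.7 CPM against 19.8, 23.1 and 21.5 CPM, 45.6% of control. A relative of peptidase inhibitor PI16 (dd_Smed_v6_11957_0_1) went lower than either, from a mean of 6.39 to 0.896 CPM, 14.03% of control. The 4 transcripts thus lay far apart within the range that the rule allows.

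Lipid enzymes and lipid-binding proteins had 10 members, which kept 16.8% to 44.6% of control. The transcript dd_Smed_v6_20_0_1, whose best hit is hematopoietic prostaglandin D synthase (HPGDS), a glutathione S-transferase relative that makes prostaglandin D in vertebrates, had 5335, 5054 and 5511 CPM in control and 1567, 2019 and 2245 CPM in *nkx2.2(RNAi)* libraries. That was 5300.2 ± 230.4 against 1944 ± 345 CPM (SD, n = 3 each), 36.7% of control. Per kilobase of transcript it was the most abundant member, at 6206 CPM per kilobase in control and 2276 in *nkx2.2(RNAi)*, ahead of the cathepsin at 5745 and 1156. By the rule the knockdown libraries did not overlap the control libraries, and as with the cathepsin replicate 1 was the lowest of the knockdown libraries.

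A relative of prosaposin (dd_Smed_v6_396_0_1) kept 28.9% of control. Prosaposin is the precursor of the saposins that help lysosomal enzymes to break down sphingolipids. The relative had 663, 575 and 573 CPM in control and 175, 163 and 185 CPM in *nkx2.2(RNAi)* libraries. The transcript dd_Smed_v6_413_0_1, with the human hit MBOAT2, a lysophospholipid acyltransferase that rebuilds membrane phospholipids, kept more: 701, 658.8 and 737 CPM against 298, 308 and 329 CPM, 44.6% of control. Both had knockdown libraries close to each other and far below the control libraries. A further, more abundant prosaposin relative (dd_Smed_v6_215_0_1) was nearly lost and is no member. Its mean was 1494.9 CPM in control and 67.0 CPM in *nkx2.2(RNAi)* libraries, 4.48% of control.

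Below these 3 members in abundance stood enzymes that act on dietary and stored fat. A relative of gastric triacylglycerol lipase (LIPF; dd_Smed_v6_1565_0_1), which in mammals starts fat digestion in the stomach, had 238, 226 and 229 CPM in control and 46.8, 43.6 and 59.6 CPM in *nkx2.2(RNAi)* libraries, 21.6% of control. A relative of phospholipase B1 (PLB1; dd_Smed_v6_2690_0_1), an enzyme of the mammalian intestinal brush border, had 125.4, 117 and 130 CPM against 17.5, 20.3 and 32.4 CPM, 18.9% of control. A relative of ACSL5 (dd_Smed_v6_2009_0_1), which joins long-chain fatty acids to coenzyme A and is prominent in the mammalian intestine, kept the least of the group, with 182, 165 and 181 CPM against 29.4, 29.7 and 29.8 CPM, 16.8% of control. For ACSL5 the 3 knockdown libraries differed by less than the control libraries did, while for PLB1 replicate 3 was the highest of the knockdown libraries.

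The other 4 lipid members were less abundant. Relatives of alkylglycerol monooxygenase (AGMO; dd_Smed_v6_3673_0_1), which cleaves ether lipids, and of cholesterol 24-hydroxylase (CYP46A1; dd_Smed_v6_7676_0_1), which turns over cholesterol in the mammalian brain, kept 36.2% and 34.3%. Relatives of the fatty acid elongase ELOVL4 (dd_Smed_v6_10529_0_1) and of CLN8 (dd_Smed_v6_7852_0_1), an endoplasmic reticulum protein mutated in a human ceroid storage disease, kept 42.4% and 33.5%.

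The 4 kinase members kept 28.5% to 40.6% of control. The most abundant was a pantothenate kinase relative (mouse hit Pank3; dd_Smed_v6_994_0_1), the enzyme of the first step of coenzyme A synthesis, with 401, 377 and 388 CPM in control and 105, 117 and 116 CPM in *nkx2.2(RNAi)* libraries, 29.0% of control. The spread within each group was small beside the gap between them. A further member without a human hit (dd_Smed_v6_4598_0_1) has the fly pantothenate kinase fumble as its hit and kept 43.2%, from 103 to 44.7 CPM. The transcript dd_Smed_v6_3794_0_1, also a relative of that enzyme, was nearly lost and is no member, with a mean of 35.3 CPM in control and 0.806 CPM in *nkx2.2(RNAi)* libraries, 2.28% of control.

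A relative of SGK3 (dd_Smed_v6_4198_0_1), a kinase of phosphoinositide signalling at endosomes, was also among the kinase members. Another was a relative of LRRK2 (dd_Smed_v6_7343_0_1), a kinase that phosphorylates Rab GTPases on endosomal and lysosomal membranes in mammals. SGK3 had 85.9, 75.7 and 77.9 CPM in control and 29.5, 27.7 and 28.2 CPM in *nkx2.2(RNAi)* libraries, 35.6% of control. LRRK2 had 62.2, 58.9 and 65.04 CPM against 17.3, 15.0 and 20.7 CPM, 28.5% of control. In both, the highest knockdown library was below 40% of the control mean.

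Cytochromes P450, heme enzymes that oxidize lipids, steroids and foreign compounds, gave 5 members beside the CYP46A1 relative. The 3 most abundant per kilobase were relatives of mouse Cyp2j6 (dd_Smed_v6_2083_0_1), Cyp2b19 (dd_Smed_v6_2351_0_1) and Cyp3a41a (dd_Smed_v6_2257_0_1). The first had 243, 238 and 227 CPM in control and 115, 115 and 122 CPM in *nkx2.2(RNAi)* libraries, and at 49.7% it was one of the members that kept the most. The second had 160, 141 and 155 CPM against 64.3, 62.0 and 68.0 CPM, 42.6% of control.

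The Cyp3a41a relative had 120, 116 and 108 CPM against 42.4, 41.7 and 41.9 CPM, 36.5% of control, with knockdown libraries almost equal to each other. A second Cyp2j6 relative (dd_Smed_v6_2394_0_1) behaved unlike the first: its control libraries were uneven, at 41.1, 28.9 and 21.6 CPM, and 19.7% remained, at 5.13, 4.47 and 8.42 CPM. These transcripts share a best hit and differed in how much was left, and how many reads they share was not measured.

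Transporters were the largest named group, with 26 members and a median of 27.5% of control, from 13.1% to 48.6%. They were moderately abundant: summed, they made up 821 to 891 CPM in control and 217 to 250 CPM in *nkx2.2(RNAi)* libraries. By their human or best hit, 18 members of all groups carried a solute carrier symbol. Among the 73 nearly lost transcripts, chosen by the same limits but with at most 12.5% of control remaining, 17 were transporters, 23.3% against 18.3% of the members. That difference in share was not tested.

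Metal ion transporters led the group by level per kilobase. A relative of the zinc importer ZIP1 (SLC39A1; dd_Smed_v6_5702_0_1) had 94.0, 88.0 and 92.5 CPM in control and 31.0, 31.1 and 37.9 CPM in *nkx2.2(RNAi)* libraries, 36.4% of control. A relative of CNNM2 (dd_Smed_v6_6666_0_1), linked to magnesium handling in mammals, had 68.4, 68.1 and 63.2 CPM against 16.01, 15.5 and 14.3 CPM, 22.9% of control. A relative of the sodium/potassium/calcium exchanger SLC24A5 (dd_Smed_v6_7121_0_1) had 78.4, 68.8 and 74.6 CPM against 10.9, 9.58 and 8.66 CPM, and at 13.1% was next to the lower limit. The knockdown libraries of these 3 members were far from their controls and close together. A further ZIP1 relative (dd_Smed_v6_10160_0_1) was in the nearly lost set, at 2.82% of control.

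Several transporter families gave more than one member. These families were put together after the values were seen. The 4 members with an exchanger of sodium, potassium and calcium as a hit kept 13.1% to 29.9%, and the 2 CNNM relatives 22.4% and 22.9%. The 2 members related to ABCC1 (dd_Smed_v6_6609_0_1 and dd_Smed_v6_9357_0_1), which pumps organic anions and drug conjugates out of cells, kept 15.6% and 19.99%. A further ABCC1 relative (dd_Smed_v6_3982_0_1) was in the nearly lost set, at 5.63% of control. The multidrug and toxin extrusion proteins (SLC47A), which export organic cations, gave 3 members with 13.2%, 41.0% and 45.8% and a further 5 transcripts in the nearly lost set, so that their relatives ranged across both sets.

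At the low end of this family, dd_Smed_v6_7241_0_1 had 62.9, 57.8 and 55.3 CPM in control and 8.67, 6.94 and 7.67 CPM in *nkx2.2(RNAi)* libraries, 13.2% of control. A relative of mouse Mfsd7 with the human hit FLVCR2 (dd_Smed_v6_8373_0_1), a major facilitator protein, had 9.41, 9.04 and 8.57 CPM against 1.02, 1.27 and 1.47 CPM, 13.9% of control. Both were among the 5 members with the least remaining. The other transporter members included carriers for amino acids and peptides (SLC36A2, SLC15A4, SLC38A7 and SLC7A2 hits at 14.7%, 20.7%, 47.2% and 48.6%). Also among them were a sodium/glucose cotransporter (slc5a9 hit, 26.1%), an organic anion carrier (SLCO1B3 hit, 37.8%) and a STRA6 relative (stra6l hit, 26.3%).

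The 5 channel members were split in level. A Piezo relative (human hit PIEZO2; dd_Smed_v6_1447_0_1), a channel opened by stretch of the membrane, had 213, 206 and 196 CPM in control and 84.9, 82.8 and 83.5 CPM in *nkx2.2(RNAi)* libraries, 40.8% of control. A mucolipin relative (fly Trpml, human MCOLN2; dd_Smed_v6_3616_0_1), a cation channel of lysosomes, had 143, 128 and 134 CPM against 49.2, 42.3 and 40.4 CPM, 32.5% of control. A relative of the potassium channel KCNQ1 (dd_Smed_v6_15923_0_1) had 14.6, 13.8 and 12.2 CPM against 7.14, 5.94 and 6.52 CPM, 48.3% of control.

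The remaining channels, relatives of bestrophin 1 and of TRPM6, were under 10 CPM in every library and kept 14.9% and 15.2%. The TRPM6 relative (dd_Smed_v6_18934_0_1) had 1.13 CPM in replicate 1 and 0.322 and 0.478 CPM in replicates 2 and 3, so that the knockdown libraries of this rare transcript were less even than those of the abundant channels.

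**Figure D3:**
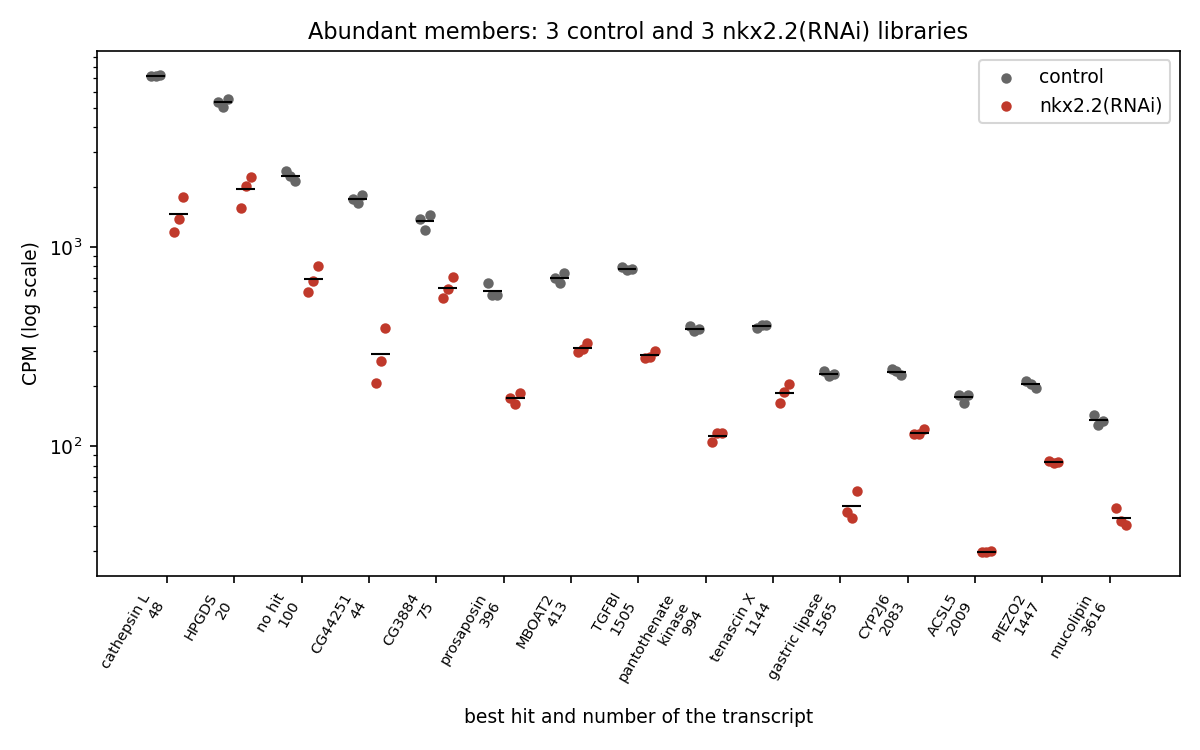
CPM (vertical axis, log scale) of 15 abundant members in the 3 control (grey) and 3 nkx2.2(RNAi) (red) libraries; points within a group stand in the order of replicates 1 to 3 and black bars are group means. The groups are apart for every transcript, as the rule requires. For several transcripts, the cathepsin, HPGDS, CG44251 and gastric lipase relatives among them, the red points spread more than the grey ones. For others, such as the ACSL5 relative, they spread less.

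Vesicle traffic and small GTPases gave 5 members with 15.9% to 49.7% of control. A Rac1 relative (dd_Smed_v6_3362_0_1), a GTPase that drives actin remodelling and engulfment, had 30.8, 29.98 and 36.5 CPM in control and 3.45, 6.23 and 5.76 CPM in *nkx2.2(RNAi)* libraries, 15.9% of control. A Rab relative (fly Rab19; dd_Smed_v6_2603_0_1), of the GTPases that direct membrane traffic, had 36.5, 32.0 and 32.1 CPM against 11.9, 13.6 and 14.4 CPM, 39.7% of control. A relative of VAMP8 (dd_Smed_v6_5150_0_1), a SNARE protein of endosome and lysosome fusion, had 17.5, 14.6 and 15.3 CPM against 6.93, 6.87 and 5.23 CPM, 40.2% of control.

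The Rac1 relative was lowest in replicate 1, and its knockdown libraries were all under 20% of the control mean. A relative of DOCK1 (dd_Smed_v6_6156_0_1), an activator of Rac in engulfment, stood at the opposite end, with 69.5, 90.1 and 72.6 CPM against 40.5, 35.6 and 39.4 CPM, 49.7% of control.

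TRAF proteins, adaptors of tumour necrosis factor and Toll-like receptors, gave 4 members, and inhibitors of apoptosis (IAP), which block caspases, gave 2. The TRAF6 relative dd_Smed_v6_1163_0_1 had 192, 183 and 192 CPM in control and 83.2, 91.4 and 92.9 CPM in *nkx2.2(RNAi)* libraries, 47.2% of control. The Traf5 relative dd_Smed_v6_1308_0_1 had 173, 150 and 172 CPM against 50.5, 51.2 and 62.8 CPM, 33.3% of control. A relative of the fly Diap2 (dd_Smed_v6_2104_0_1) had 52.9, 32.0 and 36.3 CPM against 23.8, 15.0 and 16.04 CPM, 45.2% of control.

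In the Diap2 relative, replicate 1 was the highest library of both groups, and 23.8 CPM in knockdown replicate 1 came closest to the lowest control value of 32.0 CPM. The other TRAF members kept 47.0% and 22.8%, and an XIAP relative 29.0%. A further 2 TRAF relatives were in the nearly lost set.

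Matrix and adhesion proteins gave 7 members with a median of 36.9%. The transcript dd_Smed_v6_1505_0_1, with hits in zebrafish periostin and human TGFBI, fasciclin-domain proteins of the extracellular matrix, had 789, 763 and 774 CPM in control and 278, 281 and 300 CPM in *nkx2.2(RNAi)* libraries, 36.9% of control. A tenascin X relative (dd_Smed_v6_1144_0_1), a matrix glycoprotein, had 391, 405 and 406 CPM against 165, 187 and 204 CPM, 46.3% of control. A relative of worm syg-2 and human hemicentin-1 (dd_Smed_v6_2336_0_1), an adhesion protein of the immunoglobulin superfamily, had 143, 129 and 129 CPM against 40.8, 34.0 and 34.4 CPM, 27.2% of control. The 2 lysyl oxidase-like members (LOXL2 hits), enzymes that cross-link collagen, differed in what was left, at 13.97% (dd_Smed_v6_10591_0_1) and 45.0% (dd_Smed_v6_11452_0_1). Further relatives of LOXL2 (dd_Smed_v6_7096_0_1) and TGFBI (dd_Smed_v6_1088_0_1) were in the nearly lost set, at 1.66% and 5.53% of control.

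The keywords for signalling ligands and transcription factors were narrow, and relatives of strawberry notch (dd_Smed_v6_10374_0_1) and ataxin-1 (dd_Smed_v6_11660_0_1) were counted among the others. By these keywords 3 of the nearly lost transcripts, *nkx2.2* itself among them, and a single member had a hit of this kind. It was a relative of the inhibin beta chain (zebrafish inhbab, fly Actbeta; dd_Smed_v6_3324_0_1), a ligand of the activin branch of TGF-beta signalling, with 85.3, 79.1 and 74.2 CPM in control and 44.2, 32.8 and 39.9 CPM in *nkx2.2(RNAi)* libraries, 49.0% of control. The 2 other single transcripts were a relative of the heat shock protein HSPA8 (dd_Smed_v6_19414_0_1), at 49.3%, and one of Rag1 (dd_Smed_v6_15545_0_1), which resembles a transposase, at 19.9%. The Rag1 relative had 10.7, 9.51 and 10.7 CPM against 1.34, 1.70 and 3.11 CPM, with replicate 3 above the other knockdown libraries.

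Among the 27 other members with a hit, the most abundant pair had only fly proteins of unknown role as hits. The CG44251 relative (dd_Smed_v6_44_0_1) had 1732, 1660.4 and 1812 CPM in control and 209, 266.9 and 391.9 CPM in *nkx2.2(RNAi)* libraries, 16.7% of control. The CG3884 relative (dd_Smed_v6_75_0_1) had 1378, 1218 and 1448 CPM against 552, 616 and 705 CPM, 46.3% of control. In each, replicate 1 was the lowest and replicate 3 the highest knockdown library. The 2 relatives of the fly protein CG10527 (dd_Smed_v6_1333_0_1 and dd_Smed_v6_12502_0_1) kept like shares, 30.8% and 34.9%, at control means of 98.8 and 3.73 CPM.

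The group also held a relative of the methyltransferase-like protein METTL27 (dd_Smed_v6_5408_0_1), with 32.0, 26.2 and 34.97 CPM in control and 4.35, 4.35 and 4.13 CPM in *nkx2.2(RNAi)* libraries, 13.8% of control and so among the 5 lowest. Others were relatives of ezrin (41.7%), which ties membrane to actin in microvilli, of mitofusin-1 (40.6%), which fuses mitochondria, of monoamine oxidase (44.2%), of malic enzyme (39.8%) and of transferrin (35.4%), which carries iron.

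The 40 members without a hit had a median of 36.3% of control, from 12.9% to 49.1%. The transcript dd_Smed_v6_100_0_1, of 733 bases, was the most abundant of them per kilobase, with 2401, 2261 and 2135 CPM in control and 593, 674 and 802 CPM in *nkx2.2(RNAi)* libraries, 30.4% of control. The transcript dd_Smed_v6_583_0_1 had 617, 588 and 599.7 CPM against 188, 207 and 250.2 CPM, 35.7% of control. The transcript dd_Smed_v6_777_0_1 had 299, 271 and 312 CPM against 72.8, 67.1 and 72.1 CPM, 24.02% of control. Members without a hit were 28.2% of this set and 37.0% of the 73 nearly lost transcripts.

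**Figure D4:**
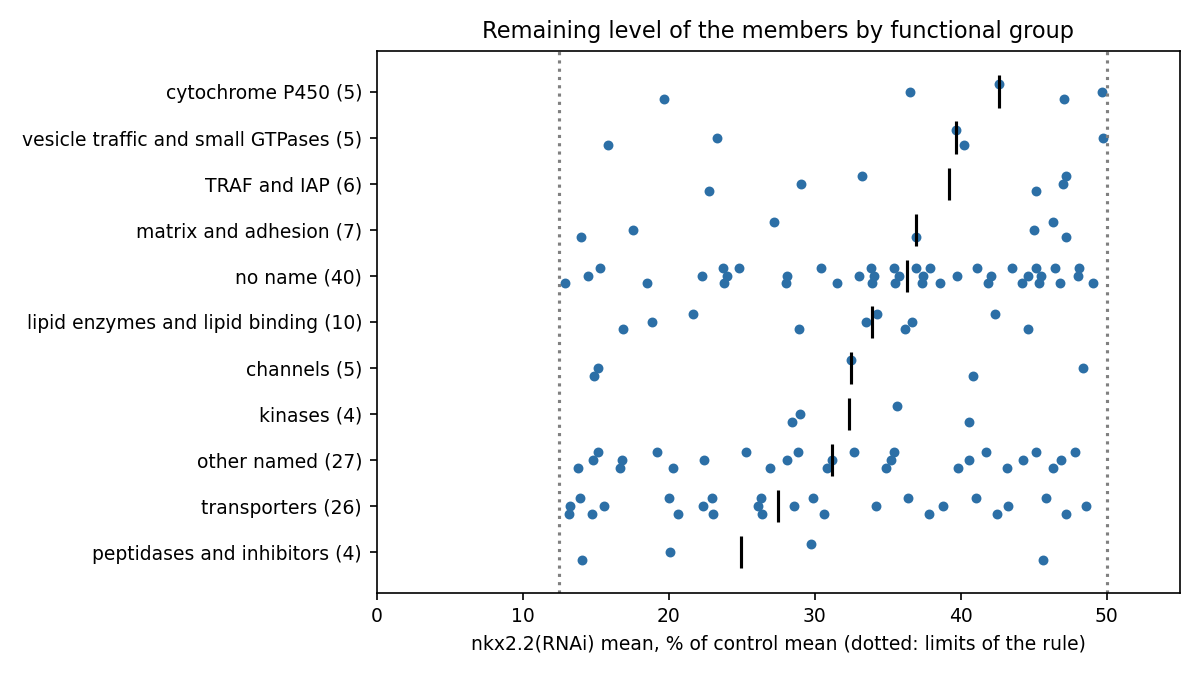
Remaining level of each member (horizontal axis, nkx2.2(RNAi) mean as % of the control mean) by functional group (vertical axis, number of members in brackets); bars are group medians, dotted lines the limits of 12.5% and 50%, and the 3 groups of 1 member are left out. The narrowest of these groups is the kinases, from 28.5% to 40.6%, and group medians run from 24.9% for peptidases and inhibitors to 42.6% for cytochromes P450.

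Near the limits, values ran on without a gap. At 50% of control, the DOCK1 and Cyp2j6 relatives above lay just inside, both at 49.7%, and dd_Smed_v6_12605_0_1 and dd_Smed_v6_12010_0_1 just outside, at 50.3% and 50.5%. At 12.5%, the transcript dd_Smed_v6_479_0_1, without a hit, and the SLC24A5 relative lay just inside at 12.9% and 13.1%, and dd_Smed_v6_11636_0_1 and dd_Smed_v6_3560_0_1 just outside at 12.3% and 11.8%. The first of these, dd_Smed_v6_479_0_1, had 106, 101 and 111 CPM in control and 11.8, 15.2 and 13.99 CPM in *nkx2.2(RNAi)* libraries.

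For the limit of 60% in each library, dd_Smed_v6_14075_0_1 and dd_Smed_v6_16390_0_1 lay just inside, with a highest knockdown library of 59.3% and 59.2%, and dd_Smed_v6_19174_0_1 and dd_Smed_v6_6496_0_1 just outside, at 60.1% and 60.4%. At the minimum of 2 CPM in control, dd_Smed_v6_9678_0_1 and the HSPA8 relative lay inside with 2.07 and 2.09 CPM, and dd_Smed_v6_23589_0_1 and dd_Smed_v6_30612_0_1 outside with 1.99 and 1.83 CPM. At this depth the rarest value of a member was 14 counts in a knockdown library and 78 counts in a control library. Of the 5 members that kept the most, dd_Smed_v6_6221_0_1, without a hit, had 116, 101 and 103 CPM in control and 62.5, 46.3 and 47.99 CPM in *nkx2.2(RNAi)* libraries, 49.1% of control.

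Members and tested transcripts can be set side by side by which library was highest within its group. Replicate 1 was the highest control library for 95 members (66.9%, against 44.9% of the tested transcripts), replicate 3 for 38 and replicate 2 for 9. With CPM scaled by TMM factors, replicate 1 was highest for 66 members (46.5%, against 31.3%) and replicate 3 for 56. Among knockdown libraries, replicate 3 was the highest for 18 of the 28 members with a control mean of 100 CPM or more, and replicate 1 for 24 of the 47 members under 10 CPM. Those libraries were highest for 29.0% and 66.7% of the tested transcripts in those ranges (for the lower range, 2 to 10 CPM). With TMM factors the members' counts were 23 and 19, and the shares of the tested transcripts 50.3% and 47.95%. These values were used to choose the members, so they are a description and were not tested. The median coefficient of variation of the members over 3 libraries was 8.55% in control and 14.7% in *nkx2.2(RNAi)* animals, against 8.52% and 10.3% for the tested transcripts, with no test of the difference.

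An assembly component is a set of transcripts joined during assembly, and 2 of the 142 members shared one with another transcript of the table, as did 274 of the 14871 tested transcripts. The SLC8B1 relative dd_Smed_v6_1009_1_1 kept 28.6%, while dd_Smed_v6_1009_0_1 had 108, 101 and 112 CPM in control and 95.0, 126 and 132 CPM in *nkx2.2(RNAi)* libraries. Its log2 fold change of 0.21 was not called (FDR 0.434, edgeR exact test). The partner of the other member, dd_Smed_v6_2615_0_1, had 74.3, 66.1 and 72.3 CPM against 64.9, 57.5 and 58.6 CPM, a log2 fold change of -0.17 (FDR 0.24, edgeR exact test).

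Since several members handle lipids, the other genes of lipid pathways were read from the study's 3 Gene Ontology lists, for lipid transport, triglyceride and cholesterol. The lists hold 315 transcripts, of which 9 were members and 6 were nearly lost. The members on them were the relatives of mucolipin and CLN8 (lipid transport), of pantothenate kinase, tenascin X, AGMO, SLCO1B3 and gastric lipase (triglyceride), and of SLCO1B3, CYP46A1, SGK3 and CLN8 (cholesterol). The ACSL5, PLB1, prosaposin, MBOAT2, ELOVL4 and HPGDS relatives among the members were on none of the 3.

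Outside the members, most transcripts of the lists were not called. Of 47 tested on the lipid transport list, 6 were called lower and 3 higher; of 139 on the triglyceride list, 17 lower and 10 higher; and of 152 on the cholesterol list, 18 lower and 10 higher (edgeR exact test). These are 12.8%, 12.2% and 11.8% lower, against 5.43% over all tested transcripts, and 6.38%, 7.19% and 6.58% higher, against 5.18%. The shares over all tested transcripts include the members, and the lists overlap. *apob-1* and *apob-2*, the latter set aside by name, are on all 3 lists and were among those called lower. Median log2 fold changes were -0.04, -0.02 and -0.03, against 0.02 over all transcripts tested. The edgeR quasi-likelihood test called 6, 16 and 14 lower (3.42% over all tested transcripts) and 0, 4 and 6 higher (3.04%). At an unadjusted p under 0.05 that test had 6, 19 and 19 higher. No share over all tested transcripts is given beside these, so nothing is read from them. DESeq2 called 3 of the lipid transport list higher, and 737 of the 14871 transcripts tested. The counts moved with single libraries: without *nkx2.2(RNAi)* replicate 1 they were 9 lower and 4 higher, 33 and 20, and 32 and 24, while without any other library at most 6, 19 and 18 were lower and at most 1, 6 and 8 higher.

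The largest falls on the lists were of nearly lost transcripts, which by their choice lay below the range of the members. *apob-1*, a carrier of lipids out of the intestine, went from 706 ± 30.7 to 5.16 ± 1.25 CPM. The pantothenate kinase relative dd_Smed_v6_3794_0_1 fell by 5.38 (SE 0.27) on the log2 scale. A relative of the sodium-dependent citrate transporter (dd_Smed_v6_1171_0_1) fell by 3.33 (SE 0.08) from 202 CPM, and one of the fly ABC transporter white (dd_Smed_v6_8560_0_1) by 3.94 (SE 0.17) from 46.8 CPM. dd_Smed_v6_8746_0_1, an elastase relative by its human hit, fell by 5.16 (SE 0.11) from 23.0 CPM. The change of *apob-2*, which met the limits of the members, was smaller, a fall of 1.28 (SE 0.38). It had 588, 1157 and 638 CPM in control and 314, 232 and 399 CPM in *nkx2.2(RNAi)* libraries. Its control libraries were uneven, and as for the members no test is given.

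Others rose in the same animals. A relative of sterol O-acyltransferase 1 (SOAT1; dd_Smed_v6_2567_0_1), which makes cholesterol esters for storage, had 56.3, 50.9 and 59.8 CPM in control and 124, 99.8 and 96.7 CPM in *nkx2.2(RNAi)* libraries, a log2 fold change of 0.99 (SE 0.13; FDR 3.8e-18, edgeR exact test). A synaptotagmin 7 relative (dd_Smed_v6_22061_0_1) rose by 1.30 (SE 0.22), from 1.80 to 4.22 CPM. A geranylgeranyl pyrophosphate synthase relative (dd_Smed_v6_35289_0_1), an enzyme of isoprenoid synthesis, had 0.868 CPM in control and 3.11 CPM in *nkx2.2(RNAi)* animals; all its control libraries were under 1 CPM, so it passed the filter through the knockdown libraries, where it was high, and its call is not support for a change. Relatives of glycerol kinase (dd_Smed_v6_10169_0_1) and of a fatty acid-binding protein (dd_Smed_v6_271_0_1) rose by 0.69 (SE 0.10) and 0.58 (SE 0.07).

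The smallest calls were less firm. A relative of acetyl-CoA carboxylase (dd_Smed_v6_7598_0_1), the first enzyme of fatty acid synthesis, was higher by 0.57 (FDR 0.027 by the edgeR exact test, 0.097 by the quasi-likelihood test). An NPC2 relative (dd_Smed_v6_704_0_1), which binds cholesterol in lysosomes, was higher by 0.49 (FDR 0.03 and 0.097 by the same edgeR tests), a glycolipid transfer protein relative (dd_Smed_v6_2621_0_1) by 0.37 (FDR 0.02 and 0.065) and dd_Smed_v6_933_0_1, without a hit in the naming tables, by 0.35 (FDR 0.015 and 0.054). All 4 lost their call without control replicate 1 and without *nkx2.2(RNAi)* replicate 2 or 3 (FDR 0.066 to 0.35, edgeR exact test).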

How the data were processed

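RNA of 3 control and 3 *nkx2.2(RNAi)* libraries was sequenced from whole animals. The authors trimmed reads with BBDuk, aligned them with Bowtie2 2.3.1 to the dd_Smed_v6 transcripts keeping all alignments, and counted them with featureCounts (Subread 1.6.3), multi-mapping reads included; the deposited table holds raw counts per transcript and the transcript lengths. FastQC 0.11.5 is also in the submitters' processing notes. A last row without a transcript name holds 0 counts and was left out. A second file holds only the authors' own fold changes, mean expression and FDR and was not used. CPM were counts divided by column sums; values are means ± SD over 3 libraries.

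The members and lists were chosen with earlier results of these data known. Following the study's methods, the edgeR 4.0.16 exact test (R 4.3.3) was run on transcripts above 1 CPM in at least 3 libraries (14871 of 28069), with TMM factors and Benjamini-Hochberg adjustment, and checked on simulated data. SE of a log2 fold change came from the log2 CPM of the libraries. Alternatives were the quasi-likelihood test, DESeq2 1.42.0, other scalings and filters, the replicate number as a block, and each library left out. Named members were the 3 with the highest control CPM per kilobase in each group, the 5 highest by that level and the 5 lowest and 5 highest by remaining level, and 2 on either side of each limit; of list transcripts outside the members, up to 3 called in each direction with the largest change. One transcript that this rule picked is not reported here. Other members named by family were chosen after their values were seen. No sequences or genome positions of the members were used here. At 53327794 to 65513912 counts per library, counting error was small for abundant members and larger for members of low abundance. The lowest value of a member was 14 counts in a knockdown library.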

Additional observations from a re-analysis of the deposited data

How the results depend on the processing

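The number of transcripts that met the member rule stayed within 1.5 times of 142 for other scalings (131 with TMM factors, 127 of them members; 140 with DESeq2 size factors, 133 of them members), for control minimums of 1 and 5 CPM (181 and 113) and for counts summed by assembly component (140). Leaving out a library gave 131 to 663, the highest without *nkx2.2(RNAi)* replicate 1. Scaling moved the median log2 ratio of the tested transcripts from -0.04 to 0.04 and that of the members from -1.55 to -1.46. The members called lower were 139 by the quasi-likelihood test, 142 under the other tests, scalings and filters, and 131 to 142 with a library left out. Over all transcripts, 808 were called lower and 771 higher by the exact test, 509 and 452 by the quasi-likelihood test, and 418 to 2508 and 292 to 2097 with a library left out; the lowest count lower came without control replicate 1 and the highest counts without *nkx2.2(RNAi)* replicate 1. On the lists outside the members, the quasi-likelihood test called 0 (lipid transport), 4 (triglyceride) and 6 (cholesterol) higher, and on the triglyceride list 6 were higher with relative log expression factors, without a filter and with filterByExpr, and 4 with library size only. With a library left out, calls lower and higher ranged from 5 to 9 and 0 to 4 (lipid transport), 12 to 33 and 2 to 20 (triglyceride) and 9 to 32 and 3 to 24 (cholesterol), highest without *nkx2.2(RNAi)* replicate 1; the causes were not tested. For the 17 transcripts outside the members that the naming rule picked or the knockdown targeted, the direction held under every alternative run, and calls were lost for the acetyl-CoA carboxylase, NPC2 and glycolipid transfer protein relatives and dd_Smed_v6_933_0_1 only, in 23 of 212 fits. Replicate numbers were shared by the groups. For each tested transcript, the deviation of log2 CPM from its group mean was correlated between control and knockdown samples. These deviations correlated at 0.40, 0.00 and 0.17 for same-numbered samples, and at -0.37 to 0.24 for the other pairs. Whether samples of the same number were handled together was not tested. With a replicate block, 1075 transcripts were lower and 797 higher by quasi-likelihood, 142 members among the former, and 8, 22 and 23 lower and 3, 8 and 9 higher on the 3 lists.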
